A study of Mus musculus with 2 samples.

Results

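The genes examined here are the translation initiation and elongation factor genes of the mouse, taken as every row of the deposited expression table whose gene symbol begins with Eif and a digit from 1 to 6, or with Eef and the digit 1 or 2. The rule found 67 of the 18032 listed genes. It takes in the factors themselves and also genes named after them that encode their kinases, binding proteins and methyltransferases. Of the 67 genes, 65 reached 1 CPM, a count scaled to a fixed library total, in at least 1 library and are the ones for which ratios are read. The cap-binding paralogue gene Eif4e1b, with 1 count in each library, and the methyltransferase gene Eef1akmt3, with 1 and 2 counts, did not.

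Polyadenylated RNA was sequenced from 2 cultures, with 1 library each. The mESC library was made from ES-E14TG2a cells, an established mouse embryonic stem cell line given as wild type (WT), grown in 2iLIF, a serum-free N2B27 medium with LIF at 100 units/ml, 1 µM PD0325901, which blocks ERK signalling, and 3 µM CHIR99021, which inhibits GSK3. The cEpiSC library was made from epiblast stem cells, also given as WT, that had been converted in culture from embryonic stem cells in 2iLIF, by plating on fibronectin in 2iLIF and, after 24 h, exchange to N2B27 with activin A at 20 ng/ml and FGF2 at 12 ng/ml for 2 days. The labels do not name the line that was converted. Both states share the N2B27 base and differ in its additions as well as in state. Plating on fibronectin and a time after plating are given here for cEpiSC alone. Medium, plating and state therefore cannot be told apart. With 1 library per state there is no replicate check and no p-value, and a difference compares these libraries.

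Translation of most mRNAs starts when initiation factor eIF4F binds the cap at the 5′ end, eIF2 brings the initiator tRNA to the small ribosomal subunit, and eIF3 joins the parts until the start codon is found. Elongation factor eEF1A then delivers each aminoacyl-tRNA and eEF2 moves the ribosome along. Cells adjust the process mainly by phosphorylation: kinases of the eIF2 alpha subunit slow initiation in general, eIF4E-binding proteins hold back the cap-binding protein under the control of mTORC1, and eEF2 kinase slows elongation. Transcript levels do not report these modifications.

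The estimated counts summed to 19843700 in the mESC library and 19956700 in the cEpiSC library. The naive-state marker genes Klf4, Esrrb, Zfp42, Tfcp2l1, Tbx3 and Nanog were all lower in cEpiSC (6 of 6, of which 4 by at least 2-fold), and Fgf5, Otx2, Pou3f1 and Dnmt3b were all at least 2-fold higher (4 of 4), in the direction the labels give. Markers of other cells were low: 4 fibroblast markers summed to 6.29 TPM, a level per transcript length scaled to a fixed total, in mESC and 7.55 TPM in cEpiSC, 4 endoderm markers to 8.52 and 7.09 TPM, 3 streak and mesoderm markers to 2.93 and 0.88 TPM, and 2 neurectoderm markers to 1.63 and 3.35 TPM. Foxa2 and Mesp1 were each at 0 counts in 1 of the libraries. Single genes within these sums moved in both directions. Thy1 had 21 counts in mESC and 94 in cEpiSC, Pdgfrb 244 and 120, Gata4 170 and 88, and Pax6 2 and 33. The part of other cell types in the results below was not tested.

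Most translation factor genes differed by less than 2-fold between the states, as did most genes of the table. Of the 65 genes read, 2 were at least 2-fold higher in cEpiSC, 2 at least 2-fold lower and 61 within 2-fold. The higher ones were Eif4e3, a cap-binding paralogue, and Eef1a2, the tissue-restricted form of eEF1A. The lower ones were Eef2k, the kinase of eEF2, and Eif2b4, a subunit of the guanine exchange factor of eIF2. Across all 13243 genes that reached 1 CPM, 13.6% were higher and 9.25% lower by the same rule. The median log2 ratio of cEpiSC over mESC was -0.0049 over the 65 genes, a value whose sign depended on the scaling, and -0.02 over all genes, and 49 of the 65 (75.4%) lay within 0.5 of 0 on that scale, beside 54.6% of all genes. The 2 sets were not matched on abundance. The median level was 188 TPM in mESC and 174 TPM in cEpiSC over the 65 genes, and 17.95 and 16.18 TPM over all genes. Ratios from low counts carry more counting error, so these shares do not show that translation factor genes were unusually stable. As these are bulk samples, fewer cells of a kind and less RNA per cell cannot be told apart.

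**Figure D1:**
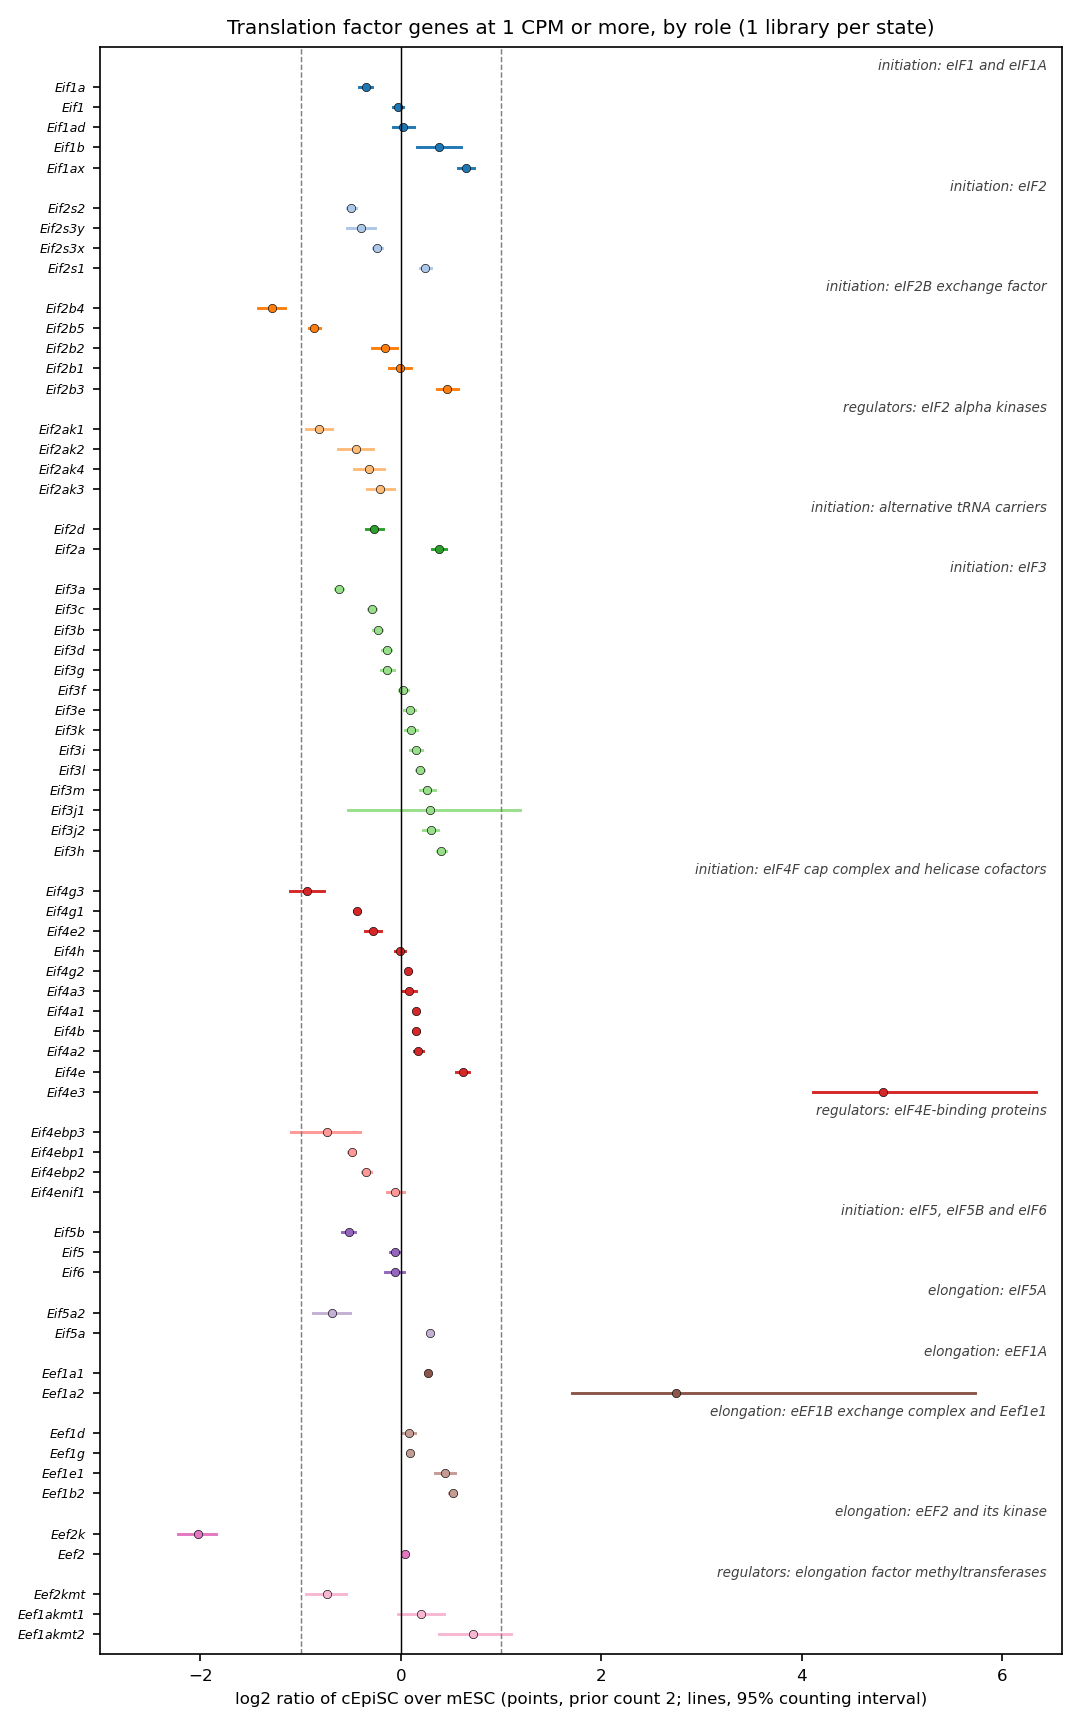
Log2 ratio of cEpiSC over mESC (x axis) for the 65 translation factor genes at 1 CPM or more, grouped by role (y axis); points are ratios with a prior count of 2, lines are exact 95% counting intervals, and dashed lines mark 2-fold. Only Eif4e3 and Eef1a2 lie right of the upper line and only Eef2k and Eif2b4 left of the lower one; the signs of 15 genes close to 0 depend on the scaling.

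Values below are counts, or CPM scaled with trimmed means of M-values (TMM), where a gene is compared between libraries, and TPM where genes are compared with each other. Ratios are log2 of cEpiSC over mESC, and brackets hold exact 95% intervals for counting error alone. The sign of the ratio changed under at least 1 other scaling (library totals, DESeq2 size factors, TPM, FPKM or centring on transcript length) for 15 of the 65 genes: Eif1, Eif1ad, Eif2b1, Eif3e, Eif3f, Eif3i, Eif3k, Eif4a3, Eif4h, Eif4enif1, Eif5, Eif6, Eef1d, Eef1g and Eef2. For those genes no direction is read. The counting interval of 9 genes included 0.

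The 67 genes together made up 3.58% of TPM in mESC and 3.81% in cEpiSC. Eef1a1 alone gave 40.9% and 44.7% of their summed TPM, at 14650 and 17062 TPM. Without Eef1a1 the sum was 21158 TPM in mESC and 21079 TPM in cEpiSC. The 4 genes with the next most abundant transcripts in cEpiSC were Eef2 (2802 TPM in mESC and 2792 TPM in cEpiSC), Eif5a (1988 and 2357 TPM), Eef1g (1866 and 1920 TPM) and Eif4a1 (1541 and 1657 TPM). In mESC the gene for the inhibitory eIF4E-binding protein 1, Eif4ebp1, stood above Eif4a1 at 1664 TPM, and it was below it in cEpiSC at 1148 TPM.

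**Figure D2:**
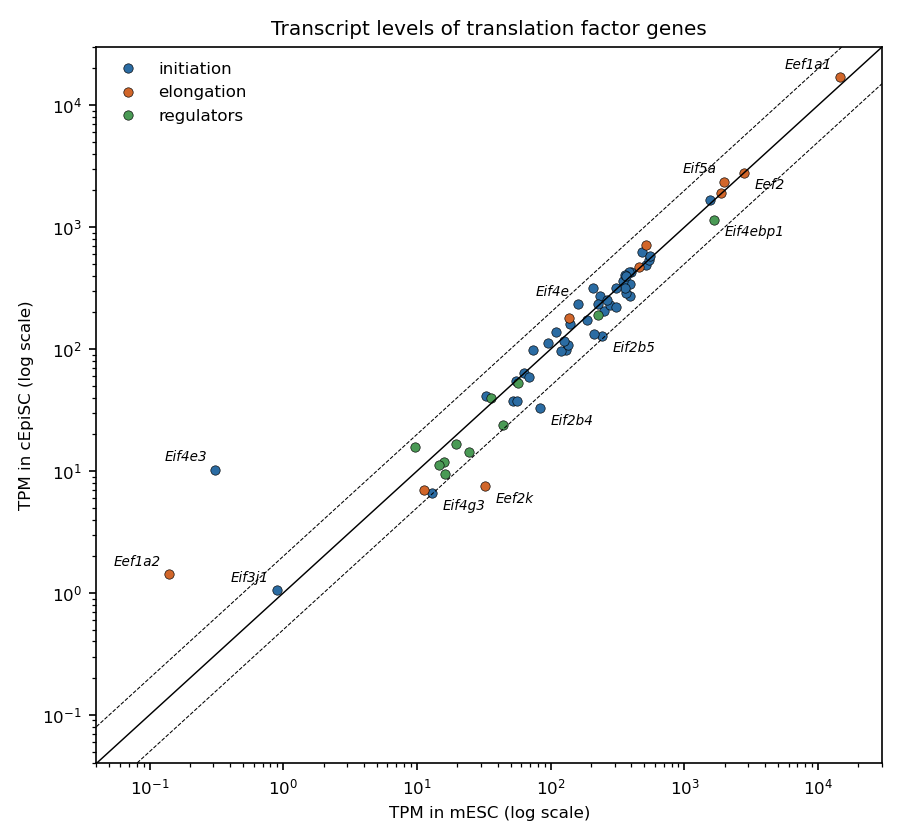
TPM in mESC (x axis) against TPM in cEpiSC (y axis), both on log scales, for the 65 genes, coloured as initiation factors, elongation factors and regulators; the solid line is equality and dashed lines are 2-fold. Levels run from 0.14 TPM (Eef1a2 in mESC) to 17062 TPM (Eef1a1 in cEpiSC), and most points lie close to the line of equality.

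Among the factors that scan for the start codon, the paralogues of eIF1A shifted against each other. Eif1ax, the X-linked gene for eIF1A, had 1856 counts in mESC and 3081 in cEpiSC, or 95.9 and 151 CPM (0.65 [0.57 to 0.73]). Eif1a, its autosomal paralogue, had 3897 and 3230 counts (-0.35 [-0.42 to -0.28]). The share of Eif1ax in the TPM of the pair was 61.5% (95% interval 60.2 to 62.8) in mESC and 76.2% (75.3 to 77.1) in cEpiSC. Its share of their counts, without regard to length, was 32.3% and 48.8%, so Eif1a had more reads in both states. Eif1, which guards start codon choice, stood at 514 and 488 TPM (-0.03 [-0.08 to 0.02]), and its estimated counts were not whole, as where reads also match other loci. Its paralogue Eif1b, with 290 and 399 counts, gave 0.38 [0.16 to 0.60], and 12.7% of its exonic bases overlap an antisense gene.

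The genes of eIF2, the carrier of the initiator tRNA, did not move as a unit. Eif2s1, the alpha subunit that stress kinases phosphorylate, went from 237 to 281 CPM (0.24 [0.19 to 0.30]). Eif2s2, the beta subunit, went from 533 to 378 CPM (-0.49 [-0.54 to -0.45]). The gamma subunit has an X-linked gene, Eif2s3x (487 and 414 CPM, -0.23 [-0.28 to -0.19]), and a Y-linked one, Eif2s3y (48.3 and 36.6 CPM, -0.40 [-0.54 to -0.26]). The alpha subunit was thus higher in cEpiSC and the other subunits lower, each by less than 2-fold. Eif2s3y gave 17.2% (16.3 to 18.2) of the TPM of the gamma pair in mESC and 15.5% (14.6 to 16.5) in cEpiSC.

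The start regions of the gamma subunit pair and of the eIF3 subunit gene Eif3f are shown because mRNAs of many translation factors begin with a tract of pyrimidines, the hallmark of mRNAs under mTORC1 control. Each stretch runs from 6 bases before to 18 bases after the start annotated by RefSeq (GRCm38.p6), in the gene's sense, with the longest pyrimidine run in the stretch in capitals.
Eif2s3x: aTTTTCCTTTTCTCTCCgagcaag
Eif2s3y: acagccaCTTCCTTCTTTCgtgag
Eif3f: ggCTCTCTCTCTTTCTCggcaaga
They lie at chrX:94212634-94212657 (minus strand), chrY:1010589-1010612 (plus strand) and chr7:108934409-108934432 (plus strand). The stretch of Eif2s3y lies inside the RefSeq span of the gene, which begins at base 1010562. A C at the annotated start followed by 4 pyrimidines was found for 2 of the 51 translation factor genes with a promoter window, Eif2s3x and Eif3f, which is 3.92%, beside 2.98% of 10578 genes at 1 CPM or more. Annotated starts need not be the starts used in these cells. Eif3f itself stood at 546 and 538 TPM (0.02 [-0.02 to 0.07]).

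The exchange factor eIF2B, which recharges eIF2 with GTP and whose activity phosphorylated eIF2 blocks, showed a wider split among its subunits than eIF2 or eIF3. Eif2b4, the delta subunit (Entrez 13667, chromosome 5, 31187558 to 31193139 in GRCm38.p6), had 1491 counts in mESC and 646 in cEpiSC, or 77.1 and 31.6 CPM. It was 2.44-fold lower in cEpiSC (-1.28 [-1.42 to -1.15]). Eif2b5, the catalytic epsilon subunit (Entrez 224045, chromosome 16, 20498795 to 20509325), had 6445 and 3749 counts and was 1.82-fold lower (-0.86 [-0.92 to -0.80]). Eif2b3, the gamma subunit, went the other way at 1194 and 1743 counts (0.46 [0.36 to 0.57]). Eif2b1, the alpha subunit, had 1290 and 1358 counts (-0.01 [-0.12 to 0.10]), and Eif2b2, the beta subunit, 1115 and 1054 (-0.16 [-0.28 to -0.04]). The delta and epsilon subunits were thus lower, the gamma subunit was higher, and the remaining ones differed little.

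In TPM, Eif2b5 was the most abundant subunit gene in both states, at 242 and 129 TPM. Eif2b4 was the second most abundant in mESC at 82.8 TPM and the least abundant in cEpiSC at 32.8 TPM. Relative to Eif2b2, Eif2b4 stood at 1.21 in mESC and 0.555 in cEpiSC. The summed TPM of the 5 eIF2B genes was 0.635 of that of the 4 eIF2 genes in mESC and 0.568 in cEpiSC. On the genome, 7.85% of the exonic bases of Eif2b4 overlap Snx17, which lies head to head with it and had a ratio of -0.30. Gtf3c2 on its other side had a ratio of -0.57. The sources used here do not say whether the authors' counting used strand, so reads of overlapping genes cannot be told apart.

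The 100 bases before the annotated start of Eif2b4 and of Eif2b5 are shown since these were the subunit genes with the largest drops. They are from RefSeq windows of GRCm38.p6, at chr5:31193140-31193239 (minus strand) and chr16:20498717-20498816 (plus strand), with a CCAAT box, read on the opposite strand as ATTGG, in capitals. The last bases of the Eif2b5 stretch lie inside the RefSeq span of the gene, which begins at base 20498795.
Eif2b4: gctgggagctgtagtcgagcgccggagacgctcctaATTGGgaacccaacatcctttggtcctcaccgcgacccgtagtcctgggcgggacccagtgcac
Eif2b5: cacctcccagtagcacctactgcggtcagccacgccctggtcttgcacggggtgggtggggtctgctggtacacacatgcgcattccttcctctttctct
In the whole window, from 250 bases before to 50 after the start, the letters CCAAT occurred on either strand in 16 of 51 translation factor genes (31.4%) and in 43.8% of the 10578 genes at 1 CPM or more that have a window. Eif2b4 and Eif2b5 are both among the 16, and the match of Eif2b5 lies outside the bases printed.

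All 4 kinases that phosphorylate eIF2 alpha were lower in cEpiSC, each by less than 2-fold, under the scaling used and under each of the other scalings tried. Under the scaling used, 6782 of all 13243 genes were below 0. Eif2ak1, the heme-regulated kinase, went from 1269 to 762 counts (-0.81 [-0.95 to -0.69]). Eif2ak2, the double-stranded RNA kinase PKR, had 596 and 461 counts (-0.45 [-0.63 to -0.27]), from estimated counts that were not whole. Eif2ak4, the amino acid sensor GCN2, had 804 and 681 counts (-0.32 [-0.47 to -0.17]). Eif2ak3, the endoplasmic reticulum kinase PERK, had 912 and 837 counts (-0.20 [-0.34 to -0.07]). Their summed level was 94.0 TPM in mESC and 63.7 TPM in cEpiSC, and Eif2ak1 gave 46.7% and 37.6% of it. Opposite-strand genes, among them Aimp2, overlap 11.6% of the exonic bases of Eif2ak1. Among the proteins that can carry tRNA to the ribosome in place of eIF2, Eif2a had 0.38 [0.31 to 0.45] and Eif2d -0.27 [-0.35 to -0.18].

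The genes that act on or respond to eIF2 phosphorylation, taken as a list outside the factors, were also all below 0 (5 of 5, of which 2 by at least 2-fold), at a median of -0.67. Beside them, 6782 of all 13243 genes were below 0, and 9.25% were at least 2-fold lower. Ddit3, which encodes the stress factor CHOP, had 446 counts in mESC and 106 in cEpiSC (-2.13 [-2.47 to -1.85]). Trib3, a pseudokinase gene of the same response, had 1254 and 631 (-1.07 [-1.21 to -0.93]). Atf4, whose mRNA is translated better when eIF2 is phosphorylated, had 7061 and 5090 counts (-0.55 [-0.61 to -0.50]). The phosphatase subunit genes Ppp1r15a and Ppp1r15b, whose products undo the phosphorylation, had ratios of -0.67 and -0.53. Kinase, phosphatase and target transcripts were thus each lower in cEpiSC, and whether they changed jointly was not tested. The list is small and was chosen with earlier results of these data known.

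The scaffold eIF3 had 14 genes in the table, none of them 2-fold apart, with 9 above and 5 below 0 and a median of 0.10. That tally rests on genes near 0: after centring on transcript length 5 were above and 9 below 0, with a median of -0.04. Eif3a, the largest subunit, had 11611 counts in mESC and 8015 in cEpiSC (-0.62 [-0.66 to -0.57]). Eif3c (-0.29 [-0.33 to -0.25]) and Eif3b (-0.23 [-0.27 to -0.18]), which form the core with it, were lower as well. At the other end stood Eif3h with 5929 and 8303 counts (0.40 [0.36 to 0.45]), Eif3j2 (0.30 [0.22 to 0.38]) and Eif3m (0.27 [0.20 to 0.34]). Eif3j2 and its near copy Eif3j1, which held 22 and 29 counts, share reads, so the split between them is uncertain.

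The levels of the eIF3 subunit genes lay farther apart in cEpiSC. Those of eIF2B were closer by the coefficient of variation (72.2% in mESC and 49.0% in cEpiSC). They were not closer by the ratio of the highest to the lowest TPM (3.85 in mESC and 3.94 in cEpiSC). Over the 12 eIF3 subunits other than the loosely bound j subunit, TPM ran from 212 (Eif3a) to 553 (Eif3k) in mESC, and from 134 (Eif3a) to 621 (Eif3h) in cEpiSC. The highest was thus 2.61 times the lowest in mESC and 4.64 times in cEpiSC, and the coefficient of variation over eIF3 subunits was 28.8% and 38.7%. Over the 14 eIF3 genes, Pearson's r of ratio with effective transcript length was -0.70 and Spearman's rho -0.40. Eif3a was the longest at 5.09 kb (-0.62, or -0.47 after centring on length). Eif3h had 1.13 kb (0.40, or 0.29 after centring). The part of transcript length in the wider spread was not tested. The summed TPM of all 14 genes hardly differed, at 4646 and 4642. An antisense gene overlaps 43.3% of the exonic bases of Eif3d, which had a ratio of -0.14 [-0.19 to -0.10].

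**Figure D3:**
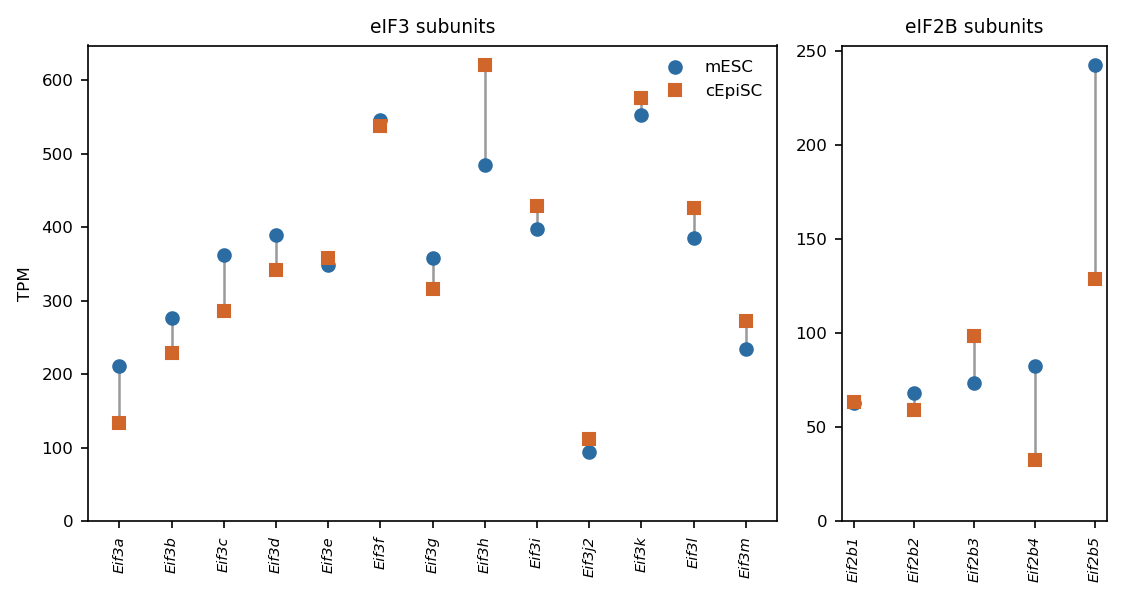
TPM (y axis) of the genes for eIF3 subunits (left, without Eif3j1) and eIF2B subunits (right) in mESC (circles) and cEpiSC (squares), with a line joining the values of a gene. Eif3a, already the lowest of the main eIF3 subunits, was lower still in cEpiSC, and Eif2b5 and Eif2b4 show the longest drops among eIF2B genes.

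At the cap, the gene for the binding protein was higher in cEpiSC and the genes for its inhibitors lower. Eif4e, which encodes the cap-binding protein, had 3110 counts in mESC and 5048 in cEpiSC, or 159 and 235 TPM (0.62 [0.55 to 0.68]). Eif4ebp1 had 15935 and 12010 counts (-0.49 [-0.52 to -0.45]), Eif4ebp2 9262 and 7711 (-0.35 [-0.39 to -0.30]) and Eif4ebp3 186 and 117 (-0.74 [-1.10 to -0.41]). These signs held under each scaling tried. The summed TPM of the 3 inhibitor genes was 1905 in mESC and 1347 in cEpiSC. Per transcript of Eif4e there were 12.0 inhibitor transcripts in mESC and 5.74 in cEpiSC, of which Eif4ebp1 made up 87.4% and 85.2%. The same-strand gene AC115631.1 overlaps 67.3% of the exonic bases of Eif4ebp3, so its counts may hold reads of that gene. Eif4enif1, which carries eIF4E into the nucleus, had 2204 and 2243 counts (-0.06 [-0.14 to 0.03]).

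The paralogues of the cap-binding protein differed in direction. Eif4e3 (Entrez 66892, chromosome 6, 99621879 to 99692873) had 8 counts in mESC and 293 in cEpiSC, or 0.413 and 14.3 CPM. This was 34.6-fold higher without a prior count, and the log2 ratio with it was 4.81 [4.12 to 6.34]. Eif4e2, a weaker cap binder known for repression of translation, had 2814 and 2453 counts (-0.28 [-0.36 to -0.20]). In the TPM of the 3 genes, Eif4e gave 54.2% (53.0 to 55.5) in mESC and 66.5% (65.4 to 67.5) in cEpiSC, Eif4e2 45.7% (44.4 to 46.9) and 30.6% (29.6 to 31.7), and Eif4e3 0.106% (0.046 to 0.209) and 2.91% (2.59 to 3.26). Despite its large ratio, Eif4e3 thus remained a minor transcript at 10.3 TPM.

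The neighbouring genes of Eif4e3 were higher in cEpiSC too. Foxp1, a transcription factor gene 99.1 kb away, had 266 and 1077 counts and a ratio of 1.93. Gpr27, whose span overlaps that of Eif4e3, had 17 and 35 counts and a ratio of 0.89. GENCODE also annotates a same-strand protein-coding gene, Gm20696, that shares 14.8% of the exonic bases of Eif4e3, and the sources used here do not say how reads were assigned between them. The part of these neighbours in the value for Eif4e3 was not tested.

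The scaffold genes of eIF4F split as well. Eif4g1, the main scaffold, had 17779 counts in mESC and 13913 in cEpiSC (-0.43 [-0.47 to -0.40]). Eif4g3, its paralogue, had 826 and 456 (-0.93 [-1.11 to -0.77]) and came nearest to the 2-fold line among genes within it. Eif4g2, also called DAP5, which lacks the site for eIF4E and serves cap-independent starts, had 25646 and 28567 counts (0.07 [0.05 to 0.10]). The share of Eif4g2 in the TPM of the 3 genes was 49.2% (48.7 to 49.7) in mESC and 58.2% (57.7 to 58.7) in cEpiSC, and that of Eif4g1 48.8% (48.3 to 49.2) and 40.6% (40.1 to 41.1). Per transcript of Eif4e there were 2.02 transcripts of Eif4g1 and Eif4g3 in mESC and 0.967 in cEpiSC.

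**Figure D4:**
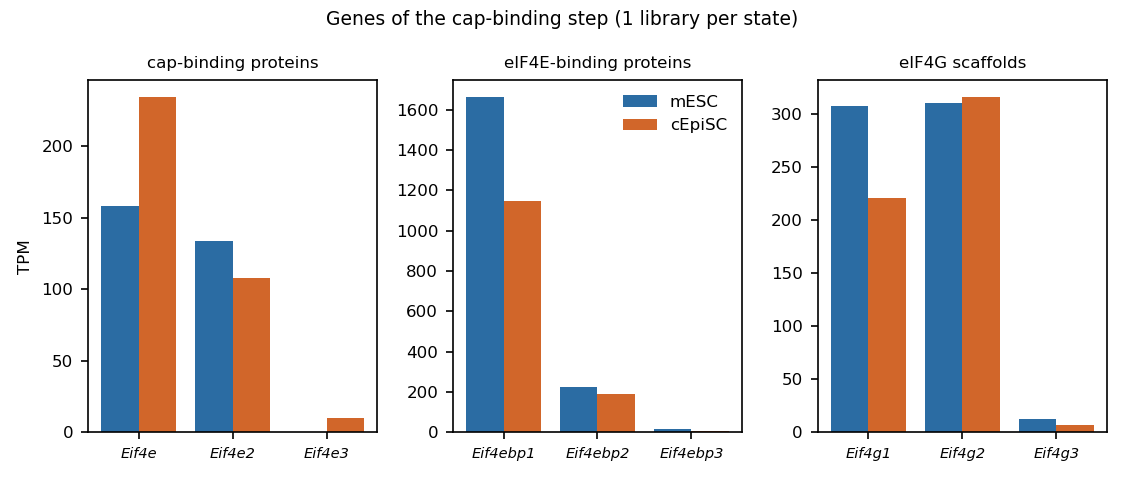
TPM (y axis, from 0) in mESC and cEpiSC of the genes for cap-binding proteins, eIF4E-binding proteins and eIF4G scaffolds, each panel with its own scale and each bar 1 library. Eif4e was higher in cEpiSC (159 and 235 TPM) while Eif4ebp1 (1664 and 1148 TPM) and Eif4g1 (307 and 220 TPM) were lower.

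The helicase genes differed little. Eif4a1, the main RNA helicase of eIF4F, had 29711 and 34915 counts (0.15 [0.13 to 0.17]), and Eif4a2, with partly shared reads, 8299 and 9916 (0.18 [0.13 to 0.22]), and small RNA genes and Rfc4 overlap 13.3% of the exonic bases of Eif4a2. Eif4a1 gave 81.1% (80.7 to 81.5) of the TPM of the pair in mESC and 80.3% (79.9 to 80.6) in cEpiSC. The cofactor gene Eif4b had a ratio of 0.15 [0.12 to 0.18] and Eif4h one of -0.0049 [-0.05 to 0.04]. Eif4a3, a core part of the exon junction complex rather than of eIF4F, had 0.08 [0.01 to 0.15].

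For the late steps, Eif5b, the GTPase that joins the ribosomal subunits, had 4627 counts in mESC and 3414 in cEpiSC (-0.52 [-0.58 to -0.46]), from estimated counts that were not whole, and with 16.8% of its exonic bases overlapped by Rev1 on the opposite strand. Eif5, which triggers GTP hydrolysis by eIF2, had -0.06 [-0.11 to -0.02], and Eif6, which keeps large subunits apart from small ones, -0.06 [-0.15 to 0.03]. Eif1ad, which shares a domain with eIF1A, had 0.03 [-0.08 to 0.13], and Banf1 on the opposite strand overlaps 15.3% of its exonic bases.

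Among the elongation factors, the abundant ones were level or slightly higher in cEpiSC and the kinase of eEF2 was far lower. Eef1a1 had 268232 counts in mESC and 341306 in cEpiSC (0.27 [0.26 to 0.27]). Eef2 had 90940 and 99028 counts (0.04 [0.03 to 0.06]), a difference whose sign depended on the scaling. The ratio of Eef1a1 to Eef2 in TPM was 5.23 in mESC and 6.11 in cEpiSC. Of the exchange factor eEF1B, the catalytic alpha subunit gene Eef1b2 was higher, at 10254 and 15536 counts (0.52 [0.48 to 0.55]), while Eef1g (0.09 [0.07 to 0.11]) and Eef1d (0.08 [0.02 to 0.14]) were close to 0. Eef1e1, whose product sits in the multi-tRNA synthetase complex, had 1389 and 1990 counts (0.44 [0.34 to 0.54]). Eif5a, which helps ribosomes through difficult peptide bonds and is the main carrier of the amino acid hypusine, had 24234 and 31352 counts (0.29 [0.27 to 0.31]), with part of its reads shared. Its paralogue Eif5a2 had 601 and 394 (-0.69 [-0.88 to -0.50]), and gave 0.568% (0.523 to 0.616) of the TPM of the pair in mESC and 0.295% (0.267 to 0.326) in cEpiSC.

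Eef2k (Entrez 13631, chromosome 7, 120842642 to 120907219), whose product phosphorylates eEF2 and so slows elongation, had 1117 counts in mESC and 289 in cEpiSC, or 57.7 and 14.1 CPM. It was 4.09-fold lower (-2.02 [-2.22 to -1.84]), the largest drop among the 65 genes. With the level of its substrate nearly the same, there were 86.8 transcripts of Eef2 per transcript of Eef2k in mESC and 373 in cEpiSC. Its neighbours were not lower: Mosmo, 108 kb away, had a ratio of 0.37, and Polr3e, 10.6 kb away, one of 0.02.

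The bases before the starts of Eef2k and Eef2 are shown because both hold the E-box CACGTG, in capitals, while Eef2k was lower and Eef2 was nearly level. RefSeq gives 3 start windows for Eef2k, and the one with the E-box is printed. That stretch, E-box included, lies inside the RefSeq span of Eef2k, which begins at base 120842642. The Eef2 stretch ends just before the span of Eef2, which begins at base 81176631. The stretches are the 100 bases before the annotated start, at chr7:120842731-120842830 and chr10:81176531-81176630 in GRCm38.p6, both on the plus strand. A TATA box in Eef2 is in capitals too.
Eef2k: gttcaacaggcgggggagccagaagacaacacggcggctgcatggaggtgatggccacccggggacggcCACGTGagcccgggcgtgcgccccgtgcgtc
Eef2: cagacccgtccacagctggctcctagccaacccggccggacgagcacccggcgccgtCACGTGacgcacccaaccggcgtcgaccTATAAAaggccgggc
In the whole window the letters CACGTG occurred in 12 of 51 translation factor genes (23.5%), beside 11.8% of 10578 genes at 1 CPM or more. The ratios of these 12 genes, among them Eif4e, Eif4g1, Eif3a, Eif5a and Eif4a1, ran from -2.02 to 0.62 with a median of 0.03. The ETS core CCGGAAG occurred in 17 of the 51 (33.3%), beside 19.7% of all, with ratios from -1.28 (Eif2b4) to 0.65 (Eif1ax) and a median of -0.14. TATAAA occurred in 5 (9.80%, beside 8.42%) and TGACGTCA in 1, Eef2 (1.96%, beside 3.47%). Each motif was searched on both strands, gene sets were not matched on base composition, and a match is a description of letters.

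Eef1a2 (Entrez 13628, chromosome 2, 181141758 to 181157015), the form of eEF1A that replaces Eef1a1 in mature neurons and muscle, had 3 counts in mESC and 33 in cEpiSC. Its ratio was 2.75 [1.71 to 5.73] with the prior count, and 10.4-fold without it. Against Eef1a1 it remained very minor, at 0.14 and 1.43 TPM.

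The enzymes that methylate elongation factors showed no common direction. Eef1akmt2 had 104 counts in mESC and 183 in cEpiSC (0.72 [0.38 to 1.10]), Eef1akmt1 had 288 and 350 (0.20 [-0.03 to 0.43]) and Eef2kmt 543 and 343 (-0.74 [-0.94 to -0.55]). The reads of Eef2kmt are partly shared, and genes on the opposite strand overlap 23.0% of its exonic bases.

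By role, the 44 initiation genes had a median ratio of 0.01, whose sign depended on the scaling, with 22 above and 22 below 0, and the 10 elongation genes, Eef2k among them, one of 0.18 with 8 above and 2 below. After centring on transcript length the tallies were 19 above and 25 below for initiation and 6 above and 4 below for elongation. The 11 regulators, namely the eIF2 kinases, the eIF4E-binding proteins and the methyltransferases, had a median of -0.35 with 2 above and 9 below 0, and 2 or 3 above 0 under each scaling tried. Of all 13243 genes, 6461 were above and 6782 below 0.

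Transcript length went with the ratio, among these genes as in the table as a whole. Effective transcript length was taken from the deposited counts and FPKM. Over all genes the median ratio ran from 0.17 in the shortest of 10 length classes, up to 1.10 kb, to -0.32 in the longest, from 5.86 kb. Over the 65 genes, Spearman's rho of ratio with length was -0.45 and Pearson's r -0.23, beside -0.16 and -0.10 over all genes. Genes share their libraries and are not independent, and no test was made. Relative to genes of like length, Eif3a (-0.47 in place of -0.62), Eif4g1 (-0.29 in place of -0.43) and Eif4g3 (-0.62 in place of -0.93) lay closer to 0, while Eif4g2 stood at 0.39 in place of 0.07 and Eif5b at -0.20 in place of -0.52. The ratios of Eef2k (-1.98), Eif2b4 (-1.34) and Eif2b5 (-0.85) changed little, and Eif4ebp1 lay farther from 0 at -0.65.

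**Figure D5:**
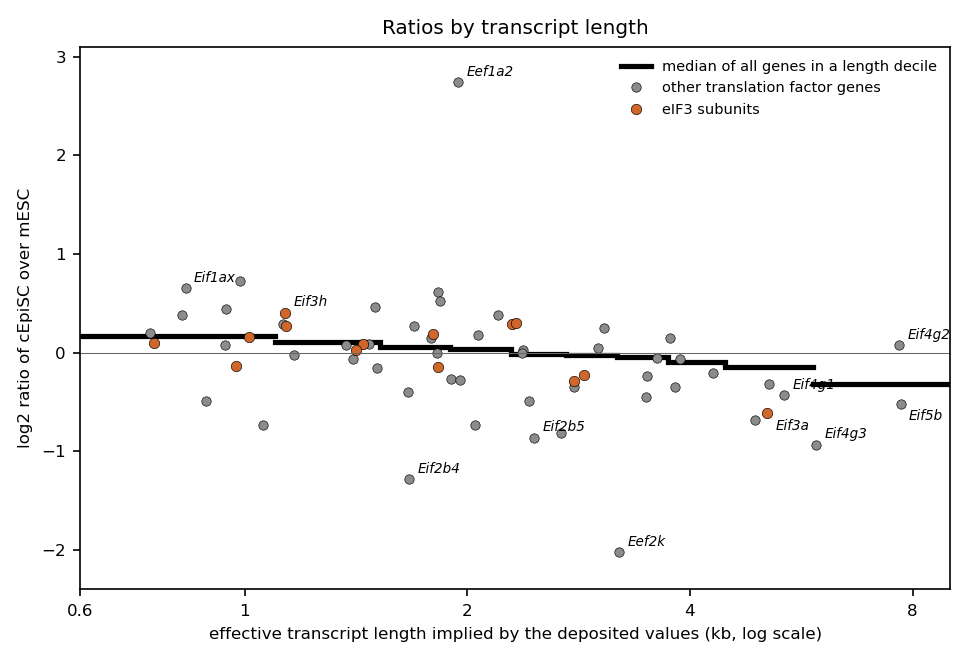
Log2 ratio of cEpiSC over mESC (y axis) against effective transcript length in kb (x axis, log scale) for 64 translation factor genes (Eif4e3, at 4.81, is off the scale), with the median ratio of all genes in each length decile as black steps. The steps run from 0.17 to -0.32, and Eef2k, Eif2b4 and Eif2b5 lie well below the step of their length.

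The other genes of translation, in 8 lists, gave 1 gene at least 2-fold higher and 3 lower among 50 read, with 37 below 0 and a median of -0.23. Among all 13243 genes, 13.6% were at least 2-fold higher and 9.25% lower, and 6782 were below 0. Among mTORC1 components and its translation targets, 10 of 12 were below 0 at a median of -0.40, and 8 of 12 at a median of -0.11 after centring on length. The higher gene of that list was Pdcd4, an inhibitor of the eIF4A helicase, with 365 counts in mESC and 1067 in cEpiSC (1.46 [1.29 to 1.64]). The kinases of eIF4E were both lower, Mknk1 at 850 and 369 counts (-1.28 [-1.46 to -1.11]) and Mknk2 at 2485 and 1518 (-0.79 [-0.88 to -0.70]). The poly(A)-binding proteins, which bridge the mRNA tail to eIF4G, and their partners had 2 of 5 genes above 0 and a median of -0.18. Pabpc1 stood at 2243 and 1482 TPM (-0.55 [-0.57 to -0.53]) and Pabpc4 at 335 and 290 TPM (-0.18 [-0.22 to -0.14]), while Paip2, an inhibitor of poly(A)-binding protein, had 2144 and 3588 counts (0.66 [0.58 to 0.74]).

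The remaining lists held no gene 2-fold apart. The release and recycling factors had 3 of 8 above 0 and a median of -0.02 (0.05 with library totals), led in abundance by Abce1, which splits the ribosome (344 and 253 TPM, -0.39 [-0.42 to -0.35]), and Etf1, the release factor that reads stop codons (191 and 184 TPM, -0.01 [-0.06 to 0.04]). The enzymes that make hypusine on eIF5A and diphthamide on eEF2 had 4 of 9 above 0 and a median of -0.08, with Dohh at 88.5 and 96.8 TPM (0.18 [0.07 to 0.28]) and Dhps at 68.6 and 95.6 TPM (0.51 [0.39 to 0.63]). The mitochondrial factors had 2 of 6 above 0 and a median of -0.06 (0.01 with library totals), with Tufm at 154 and 121 TPM (-0.31 [-0.39 to -0.23]) and Gfm1 at 85.6 and 76.6 TPM (-0.11 [-0.20 to -0.03]). The genes for selenocysteine insertion were all below 0 (3 of 3), at a median of -0.35, or -0.16 after centring on length, with Eefsec at 1550 and 1528 counts (-0.10 [-0.20 to 0.00]) and Secisbp2 at 22.9 and 17.4 TPM (-0.35 [-0.50 to -0.20]).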

How the data were processed

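The 67 genes and all gene lists were chosen with earlier results of these data known. Each of the 67 could be named. From each list of other translation genes the rule named up to 4 at least 2-fold apart, otherwise the 2 most abundant; Atf4, Ppp1r15a, Ppp1r15b, Mknk2 and Paip2 fall outside it and were named after their values were seen. Per the labels' protocols, messenger RNA was enriched with oligo(dT) and dUTP marked the second strand. HISAT2, Bowtie2, RSEM 1.3.1, DESeq2 1.34.0 and build GRCm38.p6 appear in the submitters' processing notes, without roles; annotation and filters were not stated in what was read here.

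The authors deposited unscaled estimated counts. With a tolerance of 0.005 they were not whole for 11.3% of genes in mESC and 11.9% in cEpiSC, and for 9 of the 67. The authors also deposited TPM and FPKM.

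Estimated counts were rounded and scaled by TMM in edgeR 4.0.16 (R 4.3.3) over all genes, with factors of 0.975 for mESC and 1.03 for cEpiSC. Log2 ratios used a prior count of 2 and genes at 1 CPM in at least 1 library. Calls at 2-fold are by size alone, and folds carry no prior count. Intervals are exact conditional (Clopper-Pearson) 95% limits without the prior count, with a median half-width of 0.07 for these genes. No molecular identifiers are described, so PCR copies may be counted and the limits reflect counting error alone. The code was tested on simulated data. Promoter windows (51 of 67 genes matched) and gene positions are from RefSeq (GRCm38.p6), exon overlaps from GENCODE. Alternatives were DESeq2 1.42.0 size factors, library totals, no filter, a 5 CPM filter, prior counts of 0.5 or 5, log2 of TPM or FPKM plus 1, and centring on 10 length classes.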

Additional observations from a re-analysis of the deposited data

How the results depend on the processing

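Without replicates, the results can be compared only between settings, and no setting bears on variation between cultures. The count of genes at least 2-fold higher, 2 as reported, was 1 with a filter at 5 CPM, which removes Eef1a2, and 1 with FPKM, where the pseudocount of 1 gives Eef1a2 a ratio of 0.78. It was 2 under the other alternatives. The count of genes at least 2-fold lower was 2 under every alternative run. The median ratio of the 65 genes was 0.068 with library totals and 0.095 with FPKM, beside -0.0049 as reported, scalings that also move the median of all genes, to 0.05 in both cases. None of the 4 genes called by size changed sign. Single ratios moved by more than the half-width of their counting interval for 36 of the 65 genes with library totals, 21 with TPM, 41 with FPKM and 32 with length centring, and for 0 with DESeq2 size factors or other prior counts. Taken from counts in place of TPM, the 25 paralogue shares all changed between the states in the same direction, but their sizes differ with transcript length: Eif4ebp2 had 36.5% of the counts of its family in mESC and 11.8% of the TPM, and Eif5a2 2.42% and 0.568%. Low depth limits Eef1a2 (3 counts), Eif4e3 (8) and Eif3j1 (22) in mESC. No paired analysis was possible because each state has 1 library.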

Other observations

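The effective length that the deposited counts and FPKM imply for a gene differed between the libraries for some genes. Where several isoforms of different length exist, such a length can move with their mix, but isoform values were not analysed here. Among genes at 1 FPKM or more in both libraries, 6 of 62 translation factor genes (9.68%) had lengths that differed by 2% or more, beside 16.8% of 10848 genes. Eif4ebp2 had the largest difference, from 3.82 kb in mESC to 3.45 kb in cEpiSC (-9.71%). Its log2 ratio was -0.35 from TMM-scaled counts, -0.27 from counts over library totals, -0.24 from TPM and -0.12 from FPKM, values that differ in scaling as well as in the length used. Eif2ak2 (-4.64%), Eif2b1 (-4.25%), Eif4a2 (-3.45%) and Eif5a2 (-2.46%) had shorter implied lengths in cEpiSC, and Eef2k a longer one (2.09%).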
